A study of Mus musculus with 3 samples.

Results

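The keratin genes were followed through the epidermal cells of mouse dorsal skin in 3 single-cell libraries. A gene was taken when its symbol in the feature table was Krt followed by a number and at most 1 letter, which gave 53 of 31053 genes. Expression was not used to choose them. By position, 27 of them are type I keratins on chromosome 11 between 99232761 and 100269871, and 25 are type II keratins on chromosome 15 between 101347444 and 102004482. The type I gene Krt18 lies apart from its family, next to the type II cluster at chr15:102028180-102032027 (all positions in GRCm38, the assembly also called mm10).

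Keratins are the intermediate filament proteins of epithelia. A type I and a type II chain pair to form the filament, so a cell needs at least 1 of each. Basal cells of the epidermis make Krt5 with Krt14, and as a cell leaves the basal layer it turns to Krt1 and Krt10. Other members belong to the hair follicle, to the sebaceous duct, to simple epithelia and Merkel cells, or to the hair shaft and its inner root sheath. Krt6a, Krt16 and Krt17 are made in the hair follicle and are induced in wounded or stressed epidermis.

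The young control library came from Yap1 fl/fl; Wwtr1 fl/fl mice at 2.5 months. The knockout library came from mice of the same age that carried, beside these floxed alleles, R26-CAG-CreER, in which the tamoxifen-inducible Cre is driven by the ubiquitous CAG promoter and so is not limited to fibroblasts or to epidermis. Both received 0.11 mg tamoxifen per g body weight by gavage per day, on 2 consecutive days a week for 4 weeks. The old control library came from wild-type mice at 24 months that had no tamoxifen, so age, genotype and tamoxifen cannot be told apart in old over young. Each group is 1 library, so there is no replicate check and no p-value, and every interval below covers counting error only. YAP and TAZ, the proteins of Yap1 and Wwtr1, are transcriptional co-activators that act through TEAD factors.

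The libraries held 15290 (young), 25348 (knockout) and 22108 (old) barcodes with a median of 3568.5, 1669 and 1199 UMIs (unique molecular identifiers, each counting 1 captured transcript). The mitochondrial share passed 15% in 12.3%, 62.4% and 19.4% of these barcodes. After filtering, 10784, 8655 and 11108 cells were left, of which 2976, 1890 and 4006 were epidermal-like. In epidermal-like cells Yap1 stood at 103, 32.1 and 73.1 CPM (UMIs scaled to a total of 1000000 UMIs in the summed cells) and Wwtr1 at 111, 5.92 and 98.2 CPM, in the order young, knockout, old that is kept throughout. The labels do not say which exons were floxed, so a 3′ tag may lie outside the deleted part. Xist stood at 2073, 0.363 and 1440 CPM and the Y-linked Ddx3y at 0, 92.5 and 0 CPM in these cells: the knockout library has the male pattern and both controls the female one, so the sex of the animals and their genotype cannot be told apart. Each pair of libraries shared 127 to 198 deposited cell barcodes and 39 to 50 kept ones.

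Cells were clustered within each library without the keratin genes, and clusters were named from fixed markers that held no keratin, so the keratins took no direct part in drawing the classes. Basal interfollicular-like cells numbered 925, 0 and 264, suprabasal-like cells 458, 73 and 416, upper hair follicle-like cells 368, 506 and 664, lower follicle or bulge-type cells 534, 462 and 965, and sebocyte-like cells 193, 548 and 871. A further 498, 301 and 826 epidermal-like cells stayed unnamed. The names were less firm in the knockout library. Its lower follicle-like class was 1 cluster of 462 cells in which 0 of 12 pan-epidermal and 4 of 11 bulge markers stood out, and when all libraries were clustered together 443 of its cells fell among the sebocyte-like cells. Of the 506 knockout upper follicle-like cells, 28 kept that name in the joint clustering and 257 fell with pericytes or smooth muscle, and of the 73 suprabasal-like cells 5 kept it and 40 fell in an unnamed group. Smooth muscle or pericyte markers had a summed level of 5596 CPM in knockout upper follicle-like cells, against 118 CPM in the young control and 137 CPM in the old control, and 7 of the 7 markers were at 20 CPM or more. In knockout lower follicle-like cells the same sum was 3749 CPM, against 117 and 458 CPM. In knockout suprabasal-like cells it was 331 CPM, against 165 and 138 CPM, and 4 of 6 melanocyte markers were at 0 there. The part of these other-cell markers in the keratin values was not tested.

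Cells named non-epidermal here pool fibroblasts with endothelial, lymphatic, pericyte or smooth muscle, Schwann, macrophage or monocyte, and lymphoid cells. Other clusters outside the epidermal-like ones, such as mast, melanocyte, dendritic and unnamed ones, were left out of this pool. Keratin UMIs were also found in the pooled cells, where they took 0.158%, 0.0620% and 0.554% of UMIs, the most in the old library. Whether these UMIs were free RNA, doublets or misnamed cells was not tested. Keratin levels below are set beside these cells where they come near to them.

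The start regions of 4 members the results turn on are shown first: Krt77 and Krt78, which differed most between the knockout and the young control, Krt10, their suprabasal partner, and Krt5 of the basal layer. Each runs 5′ to 3′ on the minus strand from 250 bases before to 50 after the RefSeq start (GRCm38.p6), and capitals mark a TATA box (TATAAA) or a TEAD motif (GGAATG) on either strand. The positions are chr15:101869656-101869955 (Krt77), chr15:101954238-101954537 (Krt78), chr11:99389315-99389614 (Krt10) and chr15:101712856-101713155 (Krt5).
Krt77: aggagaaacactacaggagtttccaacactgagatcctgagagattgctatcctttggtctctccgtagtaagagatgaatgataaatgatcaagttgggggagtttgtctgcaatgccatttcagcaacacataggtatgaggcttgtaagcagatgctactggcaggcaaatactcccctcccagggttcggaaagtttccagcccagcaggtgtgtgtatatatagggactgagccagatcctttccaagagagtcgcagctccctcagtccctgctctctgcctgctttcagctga
Krt78: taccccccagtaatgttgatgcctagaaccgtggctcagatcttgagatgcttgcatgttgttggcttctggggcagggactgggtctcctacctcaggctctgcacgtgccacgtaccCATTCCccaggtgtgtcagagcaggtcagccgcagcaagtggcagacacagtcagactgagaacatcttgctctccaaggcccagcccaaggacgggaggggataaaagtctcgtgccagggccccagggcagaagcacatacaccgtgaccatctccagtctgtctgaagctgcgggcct
Krt10: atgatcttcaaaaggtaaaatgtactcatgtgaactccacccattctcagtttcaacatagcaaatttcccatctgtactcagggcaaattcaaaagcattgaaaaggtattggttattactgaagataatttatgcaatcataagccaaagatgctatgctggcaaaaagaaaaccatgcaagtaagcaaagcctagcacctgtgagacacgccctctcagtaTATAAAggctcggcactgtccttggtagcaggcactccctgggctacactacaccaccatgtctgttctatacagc
Krt5: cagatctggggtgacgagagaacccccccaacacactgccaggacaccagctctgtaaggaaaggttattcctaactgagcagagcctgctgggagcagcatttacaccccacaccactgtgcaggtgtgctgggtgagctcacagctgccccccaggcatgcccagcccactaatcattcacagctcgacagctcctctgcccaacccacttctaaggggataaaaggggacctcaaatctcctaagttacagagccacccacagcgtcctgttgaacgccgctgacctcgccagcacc
RefSeq held a promoter for 36 of the 53 symbols, 37 promoters in all. A TATAAA stood in 19 of these 37, and in 13.6% of 32851 mouse promoters of the same length; in Krt10 it lies at -26. The TEAD motif GGAATG stood in 3 (Krt14, Krt20 and Krt78), and in 14.7% of all promoters; in Krt78 it lies at -131. For Krt14, Krt13 and Krt7, 1 RefSeq start each lies over 250 bases inside the gene as GENCODE annotates it (1518 bases for Krt14), so the Krt14 match is not near that annotated start. The AP-1 motif TGANTCA stood in 2 and in 7.81% of all, the AP-2 motif GCCNNNGGC in 7 and in 16.6%, and CACCC in 31 and in 57.5%. Krt77 held no match to any of the 5 motifs, and Krt5 held CACCC at 4 places. A match is a run of letters and not a shown binding site.

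Keratins took 1.92% (young), 1.26% (knockout) and 1.71% (old) of the UMIs of epidermal-like cells, from sums of 34617580, 8274402 and 19577445 UMIs. A UMI was seen for 46, 40 and 42 of the 53 genes, and 14, 11 and 13 genes reached 20 CPM. Few genes carried the family: Krt15, Krt5, Krt14, Krt10 and Krt77 made up 87.3% of keratin UMIs in young cells. The 5 highest of the knockout made up 81.9% and those of the old control 82.5%, and in both Krt17 stood among them in place of Krt77. Krt26, Krt34, Krt39, Krt40 and Krt81 were at 0 UMIs in the epidermal-like cells of all 3 libraries. A count of 0 allows up to 0.0867, 0.363 and 0.153 CPM. UMIs tagged at the 3′ end count molecules and were not divided by gene length, so levels of different keratins are compared on that scale.

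Type II genes supplied 40.6%, 39.96% and 36.2% of the keratin UMIs. It stood at 39.1% and 33.4% in basal-like cells (young, old), at 45.5%, 43.6% and 43.2% in suprabasal-like cells, at 43.7%, 37.7% and 39.2% in upper follicle-like cells, at 36.9%, 43.95% and 37.5% in sebocyte-like cells, and at 30.6%, 28.4% and 29.5% in lower follicle-like cells. The share was lowest in lower follicle-like cells in each library. Within basal-like, upper follicle-like and sebocyte-like cells the libraries differed about as much as basal-like and suprabasal-like cells of the young control did. Within suprabasal-like and lower follicle-like cells they differed less.

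**Figure D1:**
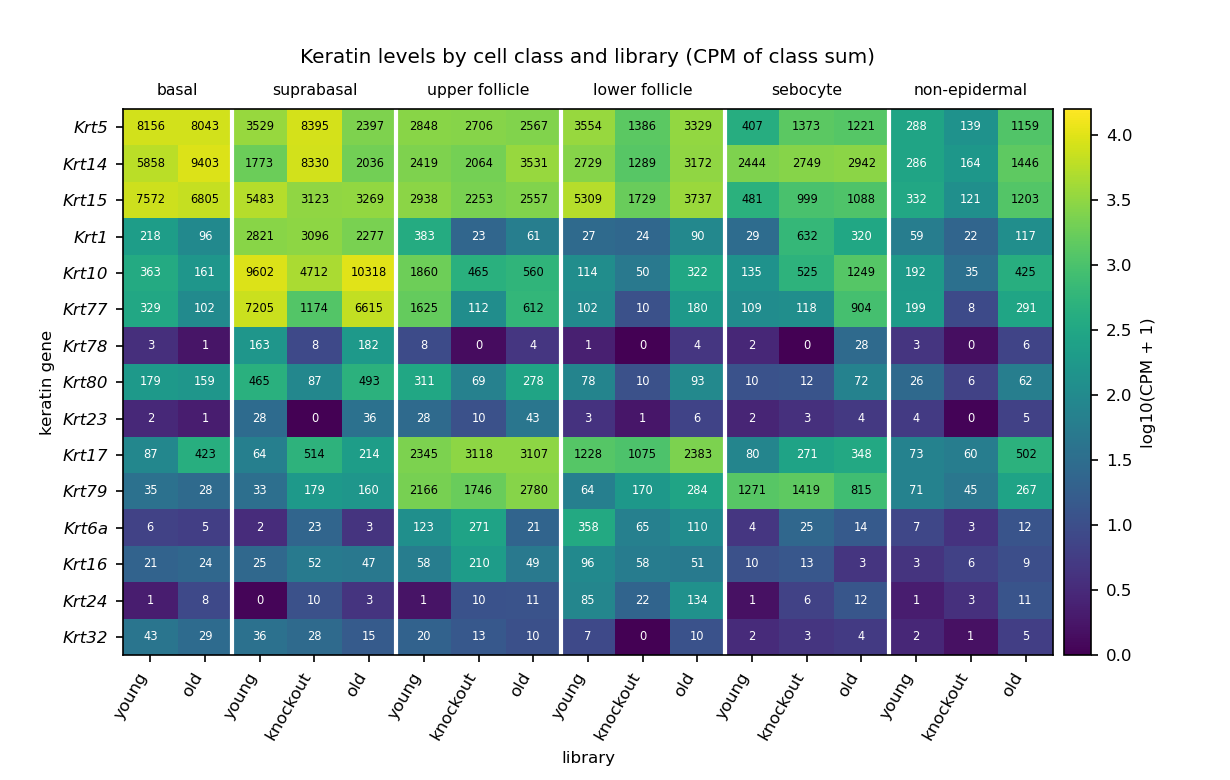
Level of 15 keratins (rows) in each epidermal class and in non-epidermal cells (columns, by library), as CPM of the summed UMIs, with color on a log10(CPM + 1) scale; there are no error bars because each cell is 1 library. Krt5, Krt14 and Krt15 are high in basal-like cells, Krt10 and Krt77 in suprabasal-like cells of the controls, and Krt17 and Krt79 in upper follicle-like cells.

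In the young control the classes carried the keratins their names call for. In young basal-like cells Krt5 stood at 8156 CPM, Krt15 at 7572 CPM and Krt14 at 5858 CPM, and these 3 made up the bulk of keratin UMIs, while Krt10 stood at 363 CPM and Krt1 at 218 CPM. In young suprabasal-like cells Krt10 stood at 9602 CPM and Krt77 at 7205 CPM, with Krt1 at 2821 CPM. Upper follicle-like cells carried Krt17 (2345, 3118 and 3107 CPM) and Krt79 (2166, 1746 and 2780 CPM), a type II keratin of the infundibulum and sebaceous duct in mice, beside Krt15, Krt5 and Krt14. Sebocyte-like cells were led by Krt14 (2444, 2749 and 2942 CPM), followed by Krt79 in the young control and the knockout (1271 and 1419 CPM); in the old control Krt79 stood at 815 CPM, below Krt10, Krt5, Krt15 and Krt77. Lower follicle-like cells were led in each library by Krt15 (5309, 1729 and 3737 CPM), a marker of follicle stem cells. Krt15 was not particular to them. It stood higher in young and old basal-like cells (7572 and 6805 CPM) and in knockout suprabasal-like cells (3123 CPM).

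Pairs of keratins in the same cell showed the same division after each cell was thinned to 1500 UMIs. Krt5 and Krt14 were found together in 97.7% of 901 young and 100% of 223 old basal-like cells. Krt1 and Krt10 were found together in 85.8% of 436 young, 70.5% of 61 knockout and 71.3% of 289 old suprabasal-like cells. In non-epidermal cells of the same libraries the share with both Krt1 and Krt10 was 2.93%, 0.532% and 7.59%. Unthinned, the suprabasal shares were 94.1%, 76.7% and 76.0%.

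**Figure D2:**
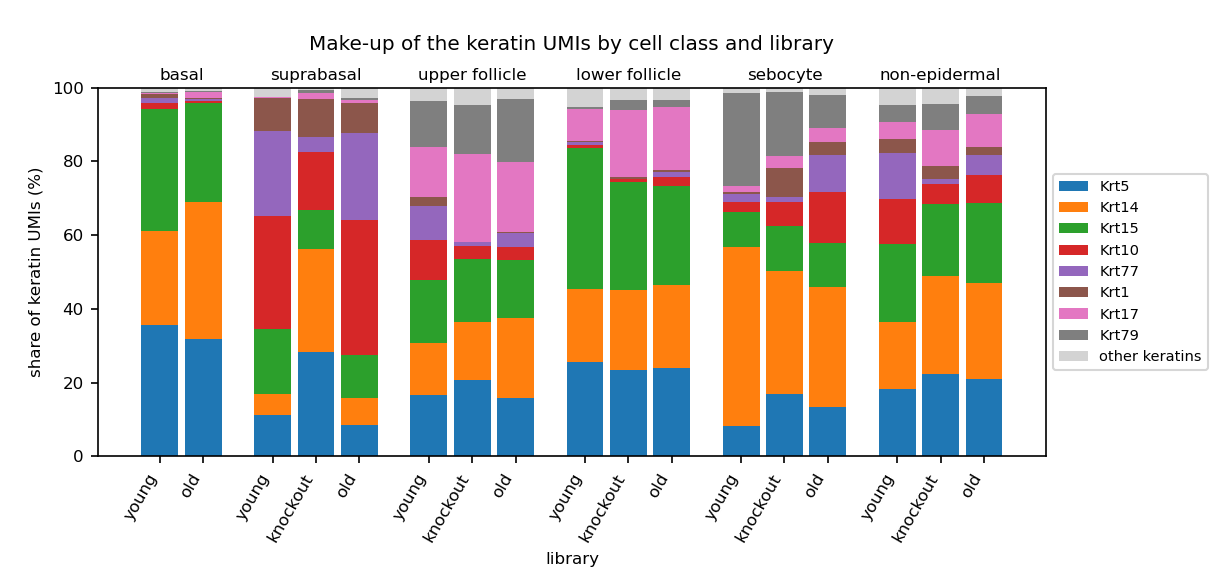
Share of keratin UMIs (percent, y axis) taken by 8 keratins and by all others, in each class and library (x axis). Krt77 takes 23.05% of keratin UMIs in young and 23.6% in old suprabasal-like cells, and Krt5 and Krt14 take its place and part of that of Krt10 in the knockout.

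Of the keratins tested in the epidermal-like cells as a whole, Krt77, Krt80 and Krt78 differed most between the knockout and the young control. These suprabasal keratins were lower in the knockout by 5-fold or more. Krt10 was lower by about 2-fold, a call lost in 5 of 15 alternatives, while Krt1, the usual partner of Krt10, was not called. These genes were counted by a size rule, which asked for a mean level of 20 CPM or more across libraries, for a change of 2-fold or more (a ratio of 0.5 or less when lower), and for a 95% interval that stayed beyond 1.5-fold. Of 13 keratins tested in all epidermal-like cells, 5 were lower in the knockout (Krt10, Krt15, Krt77, Krt78 and Krt80) and 1 was higher (Krt16). Krt78 passed the 20 CPM filter there through its control levels alone. Among all 6047 genes tested there, 6.02% were lower and 6.86% higher. Krt15 had a ratio of 0.392, and of 0.517, no longer called, with a set-aside knockout cluster described below. Krt16 had a ratio of 2.65, and of 1.18 with joint clustering. The median log2 ratio was -0.34 over the 13 keratins and -0.04 over all genes. Suprabasal-like cells were 458 of 2976 young and 73 of 1890 knockout epidermal-like cells. The part of this make-up in the ratios was not tested.

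Krt77, a type II keratin of the suprabasal epidermis in mice, stood at 1762, 253 and 1301 CPM in all epidermal-like cells. The knockout level was far below both controls, at 0.144 times the young one (95% interval 0.138 to 0.150). In suprabasal-like cells it stood at 7205, 1174 and 6615 CPM, a knockout over young ratio of 0.163 (0.154 to 0.172). In upper follicle-like cells it stood at 1625, 112 and 612 CPM, a ratio of 0.0687 (0.0611 to 0.0770). In lower follicle-like cells it stood at 102.2, 10.1 and 180 CPM, where the control values lie below the 199 and 291 CPM of non-epidermal cells. In sebocyte-like cells it stood at 109, 118 and 904 CPM, where the knockout over young ratio was 1.08 (0.918 to 1.27).

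The difference in Krt77 was also present in counts that use no class at all. Over all kept cells Krt77 stood at 952, 79.6 and 773 CPM, and over all deposited barcodes at 923, 53.4 and 746 CPM. The knockout over young ratio over all kept cells was 0.0836 for Krt77, beside 0.290 for Krt10, 0.370 for Krt15 and 0.485 for Krt5. Such counts also carry the makeup of the libraries, in which 458 of 10784 young and 73 of 8655 knockout cells were suprabasal-like and no knockout cells basal-like. The share of thinned suprabasal-like cells with a Krt77 UMI was 91.97%, 47.5% and 94.5%, and that of upper follicle-like cells 65.3%, 9.54% and 43.0%. In non-epidermal cells it was 28.5%, 1.35% and 29.8%. Unthinned, the suprabasal shares were 99.3%, 54.8% and 96.4%. The ratio for suprabasal-like cells lay between 0.0391 and 0.210 over 14 other ways of processing the data, and that for upper follicle-like cells between 0.0318 and 0.0897. Joint clustering is not among these ways. It left 5 knockout suprabasal-like and 31 knockout upper follicle-like cells, under the minimum of 50 for a comparison.

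Krt80, a type II keratin linked to late differentiation, followed Krt77 at a lower level. It stood at 226, 41.5 and 192 CPM in all epidermal-like cells, a knockout over young ratio of 0.184 (0.164 to 0.205). In suprabasal-like cells it stood at 465, 86.9 and 493 CPM (ratio 0.187, 0.152 to 0.227), and in upper follicle-like cells at 311, 68.7 and 278 CPM (ratio 0.221, 0.189 to 0.257). The old control stayed within 1.2-fold of the young one in these groups. Krt78, another type II keratin of suprabasal cells in mice, stood at 163, 7.52 and 182 CPM in suprabasal-like cells, a ratio of 0.0462 (0.0210 to 0.0879). In all epidermal-like cells Krt78 stood at 33.2, 1.21 and 33.1 CPM. Krt23, a type I keratin, stood at 28.5, 0 and 36.3 CPM in suprabasal-like cells; against the floor of 3 UMIs in the knockout it was at least 11.4-fold lower there.

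Krt10 and Krt1 did not move together between the libraries. In suprabasal-like cells Krt10 stood at 9602, 4712 and 10318 CPM, a knockout over young ratio of 0.491 (0.477 to 0.504). The ratio of Krt10 lay between 0.203 and 0.725 over 14 alternatives and lost the call in 3 of them, when thinned (0.725), at resolution 2 (0.576) and with median-of-ratios scaling (0.519). Krt1 stood at 2821, 3096 and 2277 CPM, a ratio of 1.10 (1.06 to 1.14). In upper follicle-like cells both were lower in the knockout, Krt10 at 1860, 465 and 560 CPM and Krt1 at 383, 23.1 and 61.2 CPM. The knockout level of Krt1 is close to the 22.2 CPM of its non-epidermal cells. The ratio of Krt1 to Krt10 UMIs in suprabasal-like cells was therefore 0.294, 0.657 and 0.221.

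The ratio of Krt77 to Krt10 UMIs separated the knockout from both controls in each class that held knockout cells. It was 0.750, 0.249 and 0.641 in suprabasal-like cells, 0.874, 0.240 and 1.09 in upper follicle-like cells, and 0.809, 0.225 and 0.724 in sebocyte-like cells. Over clusters with at least 200 Krt10 UMIs it ran from 0.533 to 1.23 in 11 young clusters and from 0.372 to 1.18 in 12 old ones, and from 0.145 to 0.249 in 4 knockout clusters. Clusters of 1 library are not replicates, and no test was made. A knockout cluster of 123 upper follicle-like cells went the other way, with 81 Krt77 UMIs and 16 of Krt10, a ratio of 5.06 (2.94 to 9.27). Pericyte or smooth muscle markers stood out in that cluster (5 of 7). In non-epidermal cells the ratio was 1.04, 0.223 and 0.684, so the same difference was present there.

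**Figure D3:**
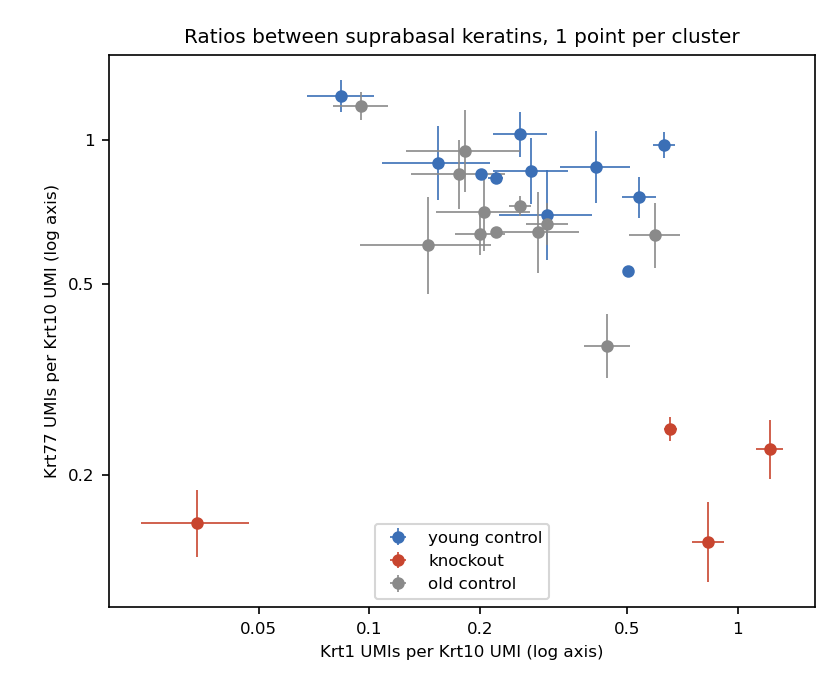
Krt77 UMIs per Krt10 UMI (y axis, log scale) against Krt1 UMIs per Krt10 UMI (x axis, log scale), 1 point per cluster with at least 200 Krt10 UMIs, with 95% intervals for counting error. The 4 knockout clusters lie between 0.145 and 0.249 on the y axis, below the lowest control cluster at 0.372, and spread over the x axis from 0.0341 to 1.22.

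Knockout suprabasal-like cells had higher levels of the basal keratins Krt5 and Krt14 than young ones. The amounts, and for Krt5 also the direction, depended on which cells were kept. Krt5 stood at 3529, 8395 and 2397 CPM and Krt14 at 1773, 8330 and 2036 CPM in suprabasal-like cells, ratios of 2.38 (2.32 to 2.44) and 4.70 (4.57 to 4.83). Krt17 (64.3, 514 and 214 CPM), Krt79 (33.4, 179 and 160 CPM) and Krt16 (25.1, 51.8 and 46.6 CPM) were also higher than in the young control. In all, 5 of the 13 keratins tested there were higher and 5 lower (Krt10, Krt23, Krt77, Krt78 and Krt80), beside 5.91% and 8.26% of all genes. Krt23 and Krt78 passed the 20 CPM filter there through their control levels alone. Krt15, also high in basal-like cells, went the other way from Krt5 and Krt14 without meeting the rule. It took 17.5% of keratin UMIs in young and 10.5% in knockout suprabasal-like cells. Its level was 3123 CPM in the knockout and 3806 and 7043 CPM in the young clusters of this class. Krt14 and Krt17 share sequence: 43 of 451 windows of 50 bases at the 3′ end of each are also in the other (9.53%), so part of their reads could be exchanged.

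These values rest on few cells. The 8 deepest of the 73 knockout suprabasal-like cells held 61.1% of the class's UMIs, and cell cycle markers had a summed level of 2572 CPM there, against 281 and 461 CPM in the controls, with 10 of 10 markers at 20 CPM or more. With every cell thinned to 1500 UMIs, the ratios were 4.09 for Krt14, 1.64 for Krt5, 1.31 for Krt17, 2.29 for Krt79, 1.84 for Krt16 and 0.725 for Krt10, of which Krt14 alone met the size rule. Krt77 had a ratio of 0.210, Krt80 of 0.0644 and Krt78 of 0.186 there, and Krt78 lost the call. With stricter limits on cells Krt14 had a ratio of 1.48, Krt79 of 1.52 and Krt5 of 0.787, so none of these 3 was called. No knockout cells were named basal-like, so which keratins a knockout basal cell carried was not analysed here. The share of thinned suprabasal-like cells with both Krt5 and Krt14 was 43.8%, 85.2% and 57.1% (unthinned 75.3%, 87.7% and 70.4%), and in non-epidermal cells 13.3%, 6.87% and 48.3%.

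**Figure D4:**
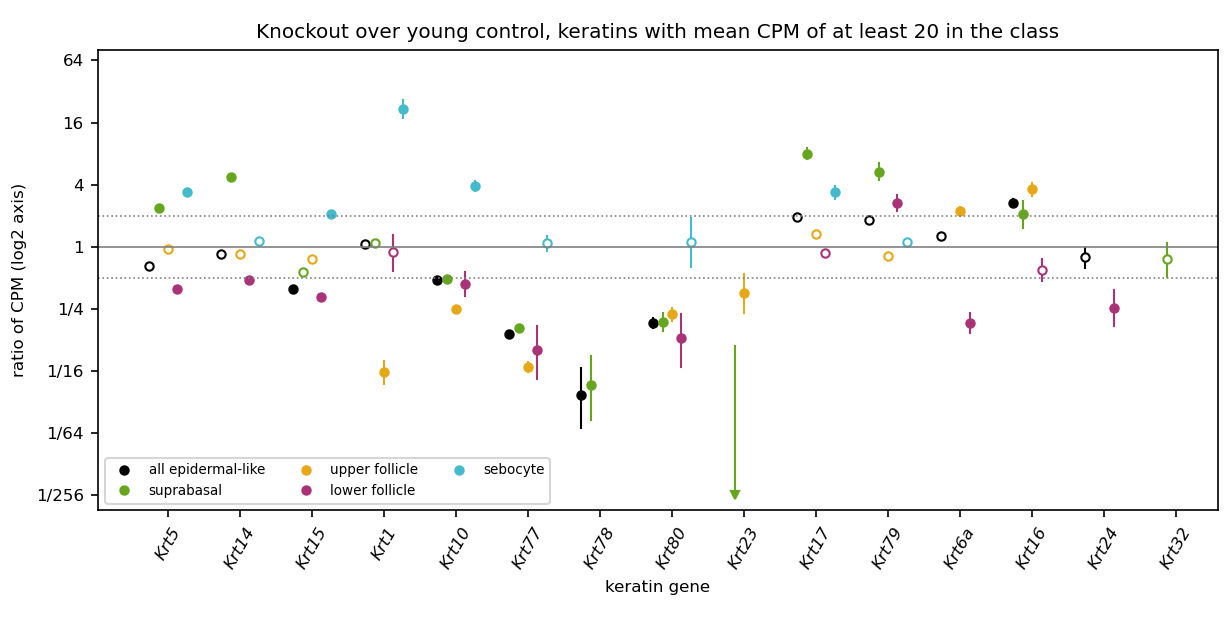
Knockout over young control ratio of CPM (y axis, log2 scale) for keratins with a mean of at least 20 CPM in the class, with 95% intervals for counting error; filled points met the size rule, dotted lines mark ratios of 2 and 0.5, and the arrow is Krt23, at 0 UMIs in the knockout. Krt77 and Krt80 lie below 0.5 in 4 of the 5 groups shown and near 1 in sebocyte-like cells, and Krt1 spans 0.0605 to 21.5.

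Of the stress keratins, Krt16 and Krt6a were higher in knockout upper follicle-like cells, and Krt17 (2345 and 3118 CPM, young and knockout) did not meet the size rule. Krt16 stood at 58.4, 210 and 48.8 CPM there, a ratio of 3.59 (3.14 to 4.11), and Krt6a at 123, 271 and 21.3 CPM, a ratio of 2.21 (1.99 to 2.45), which became 1.49 and lost the call with stricter limits on cells (at least 1000 genes and at most 10% mitochondrial UMIs). Of 12 keratins tested in this class 2 were higher and 5 lower (Krt1, Krt10, Krt23, Krt77 and Krt80), beside 6.18% and 5.26% of all genes. Krt23 passed the 20 CPM filter there through its control levels alone. Krt16 reached 408 CPM and Krt6a 229.6 CPM in the cluster of 312 cells, in which 3 of 6 melanocyte markers stood out. Krt6a reached 421 CPM in the cluster of 71 cells, where Krt16 stood at 39.8 CPM. After thinning, 23.2% of knockout upper follicle-like cells had Krt16 without Krt6a and 5.86% had both, against 7.003% and 0.280% in the young control. In non-epidermal cells at most 1.71% had Krt16 alone. Krt16 was also high in an unnamed knockout cluster of 272 cells, at 252 CPM, beside Krt1 at 976 CPM and Krt10 at 1177 CPM.

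In lower follicle-like cells 8 of 12 keratins tested were lower in the knockout (Krt5, Krt6a, Krt10, Krt14, Krt15, Krt24, Krt77 and Krt80) and 1, Krt79, was higher, beside 9.74% and 9.12% of all genes. Krt77 and Krt80 passed the 20 CPM filter there through their control levels alone. Krt15 stood at 5309, 1729 and 3737 CPM, Krt5 at 3554, 1386 and 3329 CPM and Krt6a at 358, 65.3 and 110 CPM. Keratins took 1.38%, 0.593% and 1.39% of UMIs in this class. The knockout cells are the cluster with 0 of 12 pan-epidermal markers described above, and with joint clustering, which placed 54 knockout cells in the class, Krt15 had a ratio of 1.80, Krt5 of 1.58, Krt6a of 1.28 and Krt10 of 6.47. Another knockout cluster, of 216 cells, was set aside as not epidermal by the naming thresholds. In it 6 of 6 melanocyte markers stood out, beside 7 of 12 pan-epidermal and 7 of 11 bulge markers. It held Krt15 at 6162 CPM and Krt24 at 241 CPM, and 323 of the 508 Krt24 UMIs of all kept knockout cells. With that cluster counted as lower follicle-like, an alternative added after its values were seen, the ratio was 0.752 for Krt15, 0.753 for Krt5, 0.816 for Krt14 and 1.80 for Krt79, none of which met the size rule, and 1.58 for Krt24, in the other direction. The calls of these keratins in the lower follicle thus depend on which cells are counted there. A young cluster of 139 cells, also set aside as not epidermal, held Krt15 at 5063 CPM and Krt24 at 0.391 CPM. It was not added back in that alternative. Krt14 kept its direction in 11 alternatives but met the rule in 7 of them, and Krt77 met it in all 10 with a value, between 0.05001 and 0.105, although its young level there was under that of non-epidermal cells. Subtraction of the non-epidermal level left Krt77 and Krt10 at 0 in the young control there and gave no ratio.

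Knockout sebocyte-like cells had more of the suprabasal pair. Krt1 stood at 29.4, 632 and 320 CPM, a ratio of 21.5 (17.6 to 26.5), and Krt10 at 135, 525 and 1249 CPM, a ratio of 3.89 (3.49 to 4.34). Krt5 (407, 1373 and 1221 CPM), Krt15 (481, 999 and 1088 CPM) and Krt17 (80.4, 271 and 348 CPM) were also higher, so that 5 of 9 keratins tested were higher and 0 lower, beside 7.54% and 5% of all genes. Krt1 and Krt10 came from 1 of the 3 knockout clusters: in the cluster in which 8 of 12 pan-epidermal and 12 of 13 sebocyte markers stood out, Krt1 was at 1603 CPM and Krt10 at 1312 CPM. In the clusters of 95 and 231 cells, where 13 of 13 sebocyte markers stood out in each, Krt1 was at 10.9 and 35.3 CPM and Krt10 at 20.7 and 41.9 CPM. Without clusters that showed markers of another class, the ratio was 0.666 for Krt1, 0.209 for Krt10, 1.23 for Krt5 and 1.15 for Krt15, so that Krt17 alone of the 5 was still called. Krt15 lost the call in 6 of 15 alternatives. After thinning, Krt14 without Krt5 was found in 52.5%, 21.7% and 20.8% of sebocyte-like cells, and Krt1 with Krt10 in 1.64%, 29.8% and 26.9% (unthinned 18.1%, 36.1% and 28.2%).

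Old and young control differed in fewer keratins. In all epidermal-like cells 2 of 13 were higher in the old control (Krt17 and Krt24) and 1 lower (Krt6a), beside 1.65% and 0.711% of all genes. The median log2 ratio was -0.23 over these keratins and -0.12 over all genes. Krt17 stood at 712 and 1547 CPM (young, old; ratio 2.17, 2.14 to 2.21), Krt24 at 15.1 and 48.1 CPM (ratio 3.20, 2.87 to 3.57) and Krt6a at 87.8 and 43.5 CPM (ratio 0.496, 0.459 to 0.535). After subtraction of the level in non-epidermal cells the ratio was 1.64 for Krt17 and 2.66 for Krt24, and neither met the size rule. Krt6a lay near the limit of the rule, with a ratio between 0.395 and 0.555 over 15 alternatives, and lost the call in 9 of them. Thinned, Krt24 had a ratio of 1.68. Krt24 passed the 20 CPM filter through the old control alone, as it stood at 11.8 CPM in the knockout.

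In basal-like cells Krt5 (8156 and 8043 CPM) and Krt15 (7572 and 6805 CPM) stood close in the young and old control. Krt14 was higher in the old control, at 5858 and 9403 CPM (ratio 1.61, 1.58 to 1.63), short of the size rule. Of 11 keratins tested, Krt10 (363 and 161 CPM), Krt1 (218 and 96.2 CPM) and Krt77 (329 and 101.9 CPM) were lower and Krt17 (86.9 and 423 CPM) was higher, beside 2% and 1.21% of all genes. The old levels of all 4 lie below those of old non-epidermal cells, at 425, 117, 291 and 502 CPM, and the young levels of Krt10, Krt1 and Krt77 above those of young ones, at 192, 59.0 and 199 CPM. Krt10 lost the call in 6 of 14 alternatives. The ratio of Krt5 to Krt14 UMIs was 1.39 in young and 0.855 in old basal-like cells.

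**Figure D5:**
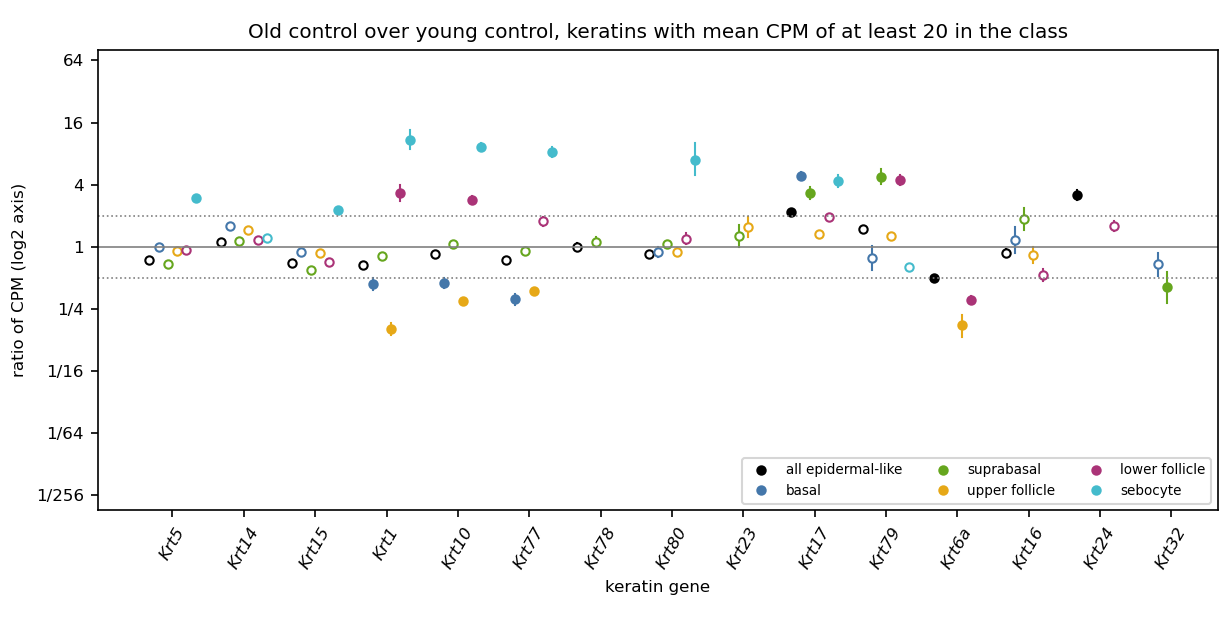
Old over young control ratio of CPM (y axis, log2 scale) for keratins with a mean of at least 20 CPM in the class, with 95% intervals for counting error; filled points met the size rule and dotted lines mark ratios of 2 and 0.5. Krt77, Krt10 and Krt1 lie below 0.5 in basal-like and upper follicle-like cells and above 8 in sebocyte-like cells, whereas Krt5, Krt14 and Krt15 lie between 0.5 and 2 outside sebocyte-like cells.

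In suprabasal-like cells Krt10 (9602 and 10318 CPM), Krt77 (7205 and 6615 CPM), Krt80 (465 and 493 CPM) and Krt78 (163 and 182 CPM) were within 1.2-fold of each other. Krt17 (64.3 and 214 CPM) and Krt79 (33.4 and 160 CPM) met the size rule as higher and Krt32, a type I keratin of the hair cuticle, as lower (36.4 and 14.8 CPM), so 2 and 1 of 13, beside 1.36% and 1.47% of all genes. With doublets kept the ratios of Krt17 and Krt79 were 1.42 and 1.38, no longer called. The old levels of Krt17 and Krt79 lie below the 502 and 267 CPM of old non-epidermal cells.

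In upper follicle-like cells 4 of 12 keratins tested were lower in the old control and 0 were higher, beside 0.965% of all genes in each direction. Krt6a stood at 123 and 21.3 CPM (ratio 0.173, 0.135 to 0.220), Krt1 at 383 and 61.2 CPM, Krt10 at 1860 and 560 CPM and Krt77 at 1625 and 612 CPM. Most of the young Krt10 came from a cluster of 212 cells with 4062 CPM, and the other young cluster of 156 cells had 338 CPM. The 3 old clusters ranged from 110 to 1128 CPM. With joint clustering the ratio was 1.24 for Krt10, 1.57 for Krt1 and 1.17 for Krt77. Thinned, Krt6a had a ratio of 0.459 and lost the call. The direction of Krt10, Krt1 and Krt77 therefore depends on which cells are called upper follicle. Krt17 and Krt79 were within 1.4-fold.

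In lower follicle-like cells Krt6a was lower in the old control, at 358 and 110 CPM (ratio 0.306, 0.280 to 0.335), and kept a ratio between 0.280 and 0.364 over 15 alternatives. Krt1, Krt10 and Krt79 met the size rule as higher, so 3 and 1 of 12, beside 2.43% and 3.06% of all genes. The old levels of these 3 were 90.3, 322 and 284 CPM, beside 117, 425 and 267 CPM in old non-epidermal cells. With doublets kept their ratios were 1.56, 1.07 and 1.57, none of them called. Krt24 stood at 84.5, 21.8 and 134 CPM in lower follicle-like cells and at most at 11.3 CPM in the pooled non-epidermal cells of any library. Among the pooled classes Krt24 was highest in old fibroblasts, at 18.7 CPM. Over all kept cells Krt24 stood at 7.39, 17.6 and 27.6 CPM, a knockout over young ratio of 2.38 (2.11 to 2.68), with most of its knockout UMIs in the set-aside cluster. Within the class it was highest in a young cluster of 157 cells (327 CPM, with Krt6a at 1035 CPM) and an old cluster of 262 cells (285 CPM, with Krt6a at 206 CPM), in both of which Postn and Ctgf were among the leading genes.

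Old sebocyte-like cells had 7 of 9 keratins tested higher than young ones and 0 lower, beside 5.81% and 1.45% of all genes. Among the 7, Krt80 passed the 20 CPM filter through the old control alone. Krt1 stood at 29.4 and 320 CPM, Krt10 at 135 and 1249 CPM, and Krt77 at 109 and 904 CPM. The old levels of these 3 were 2.73, 2.94 and 3.11 times those of old non-epidermal cells. Those of Krt15, Krt17 and Krt80 were near those of old non-epidermal cells (1088, 348 and 72.0 CPM beside 1203, 502 and 61.9 CPM), as was Krt5 (1221 beside 1159 CPM). The suprabasal keratins came from a cluster of 540 cells with Krt10 at 3024, Krt77 at 2203 and Krt1 at 775 CPM, which Krtdap and Mt4 led beside sebocyte genes such as Scd1 and Cidea. In the old cluster of 195 cells, where 11 of 13 sebocyte markers stood out, Krt10 was at 128, Krt77 at 83.3 and Krt1 at 25.1 CPM. Without clusters that showed markers of another class, the old over young ratio was 1.62 for Krt10, 1.89 for Krt1, 1.38 for Krt77, 1.82 for Krt80, 1.56 for Krt5 and 1.09 for Krt15, and Krt17 alone of the 7 was still called.

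Unnamed epidermal-like cells held 3 of 14 tested keratins higher in the knockout (Krt1, Krt10 and Krt16) and 6 lower, beside 14% and 8.38% of all genes. In the old control 5 were higher and 3 lower than in the young one, beside 6.69% and 4.17%. Non-epidermal cells gave 0 of 9 higher and 6 lower in the knockout (Krt1, Krt5, Krt10, Krt15, Krt77 and Krt80), beside 5.23% and 7.97% of all genes. In old non-epidermal cells 7 were higher and 0 lower, beside 2.48% and 4.21%.

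Among epidermal-like cells the simple epithelial keratins Krt8 and Krt18, also made by Merkel cells, stood mostly in 1 small group. An unnamed young cluster of 74 cells held 508 of the 806 Krt8 UMIs and 315 of the 364 Krt18 UMIs of young epidermal-like cells. It had Krt8 at 752, Krt18 at 466 and Krt19 at 465 CPM, and these 3 were among its leading genes. In each of the other epidermal-like clusters Krt8 stood at 44.4 CPM or less and Krt18 at 6.78 CPM or less. Krt19 reached 327 CPM in an unnamed knockout cluster of 29 cells in which 0 of 12 pan-epidermal markers stood out, with Krt8 and Krt18 at 0. Over all kept young cells there were 1795 Krt8 and 956 Krt18 UMIs, and 627 and 479 of them lay in a cluster of 97 cells outside the epidermal-like ones, led by Cenpf and Top2a of the cell cycle, with Krt19 and Upk3a also among its leading genes. After thinning, Krt8 and Krt18 were found together in 0 cells of the named classes, which limits detection at that depth and not expression, and in 0.815% of unnamed young cells. Unthinned, 3.14% of young basal-like cells had Krt8 alone and 1.95% Krt18 alone. In all epidermal-like cells Krt8 stood at 23.3, 3.99 and 3.52 CPM.

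Hair and inner root sheath keratins other than Krt32 stood at low levels in all epidermal-like cells. Of 9 type I hair keratins, Krt32 was the highest, at 23.8, 10.5 and 12.7 CPM, and the other 8 stood at 1.79 CPM or less in each library. The 6 type II hair keratins stood at 0.363 CPM or less. Krt27 was the highest of 7 inner root sheath keratins, at 2.20, 3.87 and 3.37 CPM. The oral keratin Krt4 reached 21.0 CPM in young upper follicle-like cells, against 0.735 and 9.92 CPM, and Krt7 stood at 12.7, 2.57 and 36.6 CPM there. Krt9, the keratin of palm and sole, stood at 1.59, 0.725 and 0.766 CPM, and Krt2, a keratin of the upper spinous and granular layers, at 2.77, 0 and 0.664 CPM in all epidermal-like cells.

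Genes that work with keratins were read by the same rule from fixed lists. Desmosomes anchor keratin filaments between cells: of 11 desmosomal genes tested in all epidermal-like cells, 8 were lower in the knockout and 0 higher, with a median log2 ratio of -1.08, beside 6.02% lower, 6.86% higher and a median of -0.04 over all genes. Dsg1a, a desmoglein of the differentiated layers, stood at 328 CPM in the young control and 89.4 CPM in the knockout (ratio 0.273, 0.253 to 0.294). The knockout epidermal-like cells held 0 basal-like and 73 suprabasal-like cells, and the young ones 925 and 458. The part of this make-up in the desmosomal counts was not tested. In suprabasal-like cells 3 of 13 were lower (Dsg1a, Dsc3 and Ppl), beside 8.26% of all genes, with Dsg1a at 934 and 273 CPM. In old over young 0 of the 11 met the rule in either direction.

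Hemidesmosomes anchor Krt5 and Krt14 filaments to the basement membrane: 3 of 9 of their genes were lower in the knockout in all epidermal-like cells (Col17a1, Dst and Lamb3) and 0 were higher, beside the same 6.02% and 6.86% of all genes, with Col17a1 at 1348 and 394 CPM (young, knockout). The epidermal-like cells of the knockout hold no cells named basal-like. The part of this make-up in the counts of this list and of those below was not tested. In old over young basal-like cells 0 of 9 met the rule. Of 14 regulators of epidermal differentiation 6 were lower in the knockout and 0 higher, beside 6.02% and 6.86% of all genes, among them Ovol1 (232 and 59.8 CPM), Zfp750 and Trp63. In suprabasal-like cells 7 of 14 were lower and 1, Sox9, was higher, beside 8.26% and 5.91% of all genes. Stfa3, of the wound and stress list, stood at 16.3 CPM in young and 478 CPM in knockout epidermal-like cells (ratio 29.4, 26.9 to 32.2), and 2 of that list's 5 tested genes were higher and 0 lower, against 6.86% and 6.02% of all genes. Among other intermediate filament genes 3 of 5 were higher in the knockout, again beside 6.86% of all genes, and these were Des, Synm and Vim, which muscle or mesenchymal cells carry, with Des at 10.2 and 245 CPM.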

How the data were processed

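Libraries of collagenase-digested dorsal skin, made with 10x 3′ v3.1 reagents, were analysed, 3 in all and 1 per group. The deposited files hold raw UMI counts per gene and cell barcode, which Cell Ranger 3.1.0 wrote, per the file headers, for the authors; Seurat 3.1.5 and mm10 are named in the submitters' processing notes. The members, lists and fixed markers were chosen with earlier results of these data known.

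Barcodes with at least 500 genes, 1000 UMIs and at most 15% mitochondrial UMIs passed (11722 young, 9408 knockout, 12074 old). The 8% with the highest Scrublet doublet scores were removed per library, because the automatic threshold marked 2.82%, 0% and 0.00828%. Each library was clustered alone in scanpy 1.11.5 (2000 variable genes without keratins, 30 components, 20 neighbours, resolution 1). The planned main clustering, of the libraries together, gave unstable classes. Once the cluster tables had been inspected it was replaced and kept as an alternative, and the thresholds for naming were chosen at that point too. A marker stood out at 2 times the level of the library's other cells. Keratins were described with values where their mean CPM over the libraries reached 20 in the epidermal-like cells or an epidermal class, and named where they met the size rule; others were named where a class or pair turns on them, chosen after their values were seen.

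UMIs were summed per library and class and given as CPM with exact Poisson 95% intervals. Ratios carry the exact interval from the binomial split of both counts, shares Clopper-Pearson ones, and log2 ratios 0.5 added counts. A class needed 50 cells in both libraries. The floor of detection is 3 UMIs per library. The functions were tested on simulated sums. Positions are from GENCODE M21, promoters from RefSeq. No protein sequence was used here. Krt74 and Krt85 were not analysed here.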

Additional observations from a re-analysis of the deposited data

Results flagged for a closer look

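Several keratins met the size rule in opposite directions in different classes of the same comparison. With 1 library per group the difference between classes was not tested.

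In knockout over young control, Krt10 had a ratio of 3.89 in sebocyte-like cells and of 0.2502 in upper follicle-like cells, and Krt1 of 21.5 and 0.0605 in the same classes. Krt15 had a ratio of 2.08 in sebocyte-like and of 0.326 in lower follicle-like cells, and Krt5 of 3.37 and 0.390. Krt14 had a ratio of 4.70 in suprabasal-like and of 0.472 in lower follicle-like cells. Krt6a had a ratio of 2.21 in upper and of 0.182 in lower follicle-like cells. With the set-aside knockout cluster counted as lower follicle-like, Krt15, Krt5 and Krt14 had ratios of 0.752, 0.753 and 0.816 there and were no longer called.

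In old over young control, Krt10 had a ratio of 9.25 in sebocyte-like and of 0.301 in upper follicle-like cells, and Krt1 of 10.9 and 0.160. Krt77 had a ratio of 8.28 in sebocyte-like and of 0.310 in basal-like cells. Over the alternatives, the ratio of Krt10 in sebocyte-like cells lay between 0.209 and 4.75 for the knockout and between 1.61 and 9.32 for the old control.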

How the results depend on the processing

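No paired analysis was possible because each group is 1 library, and for the same reason no replicate could be left out. Of 62 keratin calls by class, 16 kept direction and size under every alternative with a value, among them Krt77 and Krt80 in knockout epidermal-like, suprabasal-like and upper follicle-like cells. Joint clustering gave no value for the knockout suprabasal-like and upper follicle-like classes, which held too few cells there. For 20 calls the subtraction of the level in non-epidermal cells left a library at 0 and gave no ratio. In some of them the library at 0 was the one called higher, against the call. These were Krt17 in old basal-like and sebocyte-like cells and Krt15 in old sebocyte-like cells. Krt10 and Krt77 in lower follicle-like cells, knockout over young, were the others. Both Krt17 calls and the Krt77 call are among the 16. Joint clustering, the removal of clusters with other cell types' markers and the addition of the set-aside knockout cluster to the lower follicle were added after the data were seen. Dropping cell-cycle clusters and comparing a shared cluster mix were not run, since no class was named cycling and no cluster was shared. Cell cycle markers were nonetheless high in the knockout suprabasal-like class. Where no value bears on it, the cause of a change was not tested. Depth limits low keratins: a count of 0 allows 0.363 CPM in the knockout.

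Knockout over young, all epidermal-like cells, 1 keratin higher and 5 lower. Higher calls numbered 2 with the set-aside cluster, with the non-epidermal level subtracted, without mixed clusters, at resolution 2 and with joint clustering, and 3 with strict cell limits, doublets kept or keratins among the variable genes. Lower calls numbered 10 with a 5 CPM filter, 14 with no filter and 3 with the non-epidermal level subtracted. The median log2 ratio of -0.34 became -1.07 with the 5 CPM filter, -0.18 with the non-epidermal level subtracted and -0.16 with joint clustering. Summed over classes, 13 higher calls became 20 with no filter and 8 without mixed clusters, with strict limits or with joint clustering. The 18 lower calls became 10 with strict limits or doublets kept, 11 with keratins among the variable genes and 1 with joint clustering. Medians changed sign in suprabasal-like cells when thinned (0.12), in lower follicle-like cells with joint clustering (0.51) and in sebocyte-like cells without mixed clusters (-0.030).

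Old over young, all epidermal-like cells, 2 keratins higher and 1 lower. Higher calls numbered 0 with the non-epidermal level subtracted. Lower calls numbered 0 with TMM or median-of-ratios scaling, thinning, without mixed clusters, strict limits, 30% mitochondrial share, doublets kept, resolution 2 or joint clustering, and 4 with the 5 CPM filter, 8 with no filter and 2 with the non-epidermal level subtracted. The median of -0.23 became -0.16 with median-of-ratios scaling or strict limits, -0.42 with no filter, -0.62 with the non-epidermal level subtracted, -0.34 when thinned, -0.18 with 30% mitochondrial share and -0.15 with doublets kept. Over classes, 13 higher calls became 23 with no filter, 4 with the non-epidermal level subtracted and 7 without mixed clusters, and 9 lower calls became 21, 16 (non-epidermal level) and 5 (joint clustering). Medians changed sign in basal-like cells with median-of-ratios scaling (0.0048), in suprabasal-like cells with no filter (-0.22), the non-epidermal level subtracted (-0.25) or thinning (-0.056), in upper follicle-like cells with strict limits (0.030) or joint clustering (0.31), in lower follicle-like cells with no filter (-0.43), the non-epidermal level subtracted (-0.59) or strict limits (-0.10), and in sebocyte-like cells with the non-epidermal level subtracted (-0.73).

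The keratin share of UMIs, 1.92% in the young control, became 1.77% with the non-epidermal level subtracted, 1.98% with strict limits, 1.90% with 30% mitochondrial share, 1.91% with doublets kept and 1.96% with keratins among the variable genes, resolution 2 or joint clustering. That of the knockout, 1.26%, became 1.19% with the non-epidermal level subtracted, 0.9004% when thinned, 1.48% without mixed clusters, 1.49% with strict limits, 1.11% with 30% mitochondrial share, 1.36% with doublets kept, 1.29% with the set-aside cluster, 1.33% with keratins among the variable genes and 1.41% with joint clustering. That of the old control, 1.71%, became 1.15% with the non-epidermal level subtracted, 1.57% when thinned, 1.75% without mixed clusters, 1.81% with strict limits, 1.76% with doublets kept, 1.74% with keratins among the variable genes or joint clustering and 1.73% at resolution 2.

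Single keratins that changed direction were, in the knockout, Krt5 in suprabasal-like cells with strict limits (0.787), Krt79 in lower follicle-like cells at resolution 2 (0.908), Krt10 and Krt1 in sebocyte-like cells without mixed clusters (0.209 and 0.666), Krt24 in lower follicle-like cells with the set-aside cluster (1.58), and in the same class with joint clustering Krt24 (3.84), Krt10 (6.47), Krt15 (1.80), Krt80 (1.01), Krt6a (1.28) and Krt5 (1.58). In the old control they were Krt10 (1.24), Krt1 (1.57) and Krt77 (1.17) in upper follicle-like cells with joint clustering, Krt1 in lower follicle-like cells with strict limits (0.897) and Krt5 in sebocyte-like cells with the non-epidermal level subtracted (0.520). Of the other alternatives for single keratins that gave a ratio, 750 kept direction and size and 87 kept direction alone. Calls for which the subtraction left the higher library at 0 had no ratio and are not in these lists.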
